A study of Mus musculus with 6 samples.

Results

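The mitochondrial ribosomal protein genes are the nuclear genes that encode the protein subunits of the mitochondrial ribosome. They were taken as every gene symbol of the form Mrpl or Mrps followed by a number and, at most, a letter from a to c. Mrps23 was left out because it flanks the targeted gene. This gave 77 genes, 49 of the large subunit (Mrpl) and 28 of the small subunit (Mrps), among 23574 features in all. They were compared in haematopoietic stem cells sorted from C57BL/6 mice labelled HLF KO, which lack the transcription factor Hlf (hepatic leukaemia factor, a PAR bZIP protein), and from wild-type mice of the same strain (WT). Each genotype had 3 RNA sequencing libraries, each made from 3000 freshly sorted cells that carried Sca and c-Kit but lacked lineage markers, CD34 and Flt3. The labels used here do not name the knockout allele, the age or sex of the mice, or say that each library came from its own animal. The spread that p-values rest on is thus that of libraries and may be technical. In bulk RNA, fewer cells of a kind and less RNA per cell cannot be told apart.

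The mitochondrial ribosome translates the few mRNAs that mitochondrial DNA still encodes, all of them for subunits of the respiratory chain and ATP synthase. Its RNA is made inside the organelle, while every protein is encoded in the nucleus, made in the cytosol and imported. Some subunits have a counterpart in bacterial ribosomes and others are found only in mitochondria. Haematopoietic stem cells are largely quiescent and rely less on respiration than the progenitors that arise from them.

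Total counts ran from 8346335 to 9902102 in the WT libraries and from 10182464 to 11998296 in the HLF KO libraries, so every knockout library was the deeper. Hlf had 10768, 15982 and 10055 counts in WT and 309, 399 and 431 in HLF KO, so that every library labelled HLF KO was far below every WT library. Of 16 stem cell marker genes 14 were tested, 6 with higher and 8 with lower values in HLF KO (median log2 fold change -0.21). By edgeR 0 of them were called and 3 had an unadjusted p under 0.05, all lower, where 4.65% of all tested genes did. Every knockout library was below every WT library for 3 of these markers and above for 1. Over all tested genes those shares were 6.85% and 7.52%. The summed level of the stem cell markers was 1367 to 1664 CPM (the count scaled to library size) in WT and 1252 to 1494 CPM in HLF KO. Granulocyte-monocyte markers were lower for 10 of 10 tested (13 listed, S100a9 at 0 in all libraries) and set WT library 3 apart. Their summed level was 3413 CPM there, 626.1 and 661.8 CPM in the other WT libraries and 334.4 to 494.2 CPM in HLF KO. The mean log2 CPM of those tested overlapped between genotypes, at 2.39, 2.71 and 7.27 in WT and 2.02, 3.29 and 1.73 in HLF KO. By edgeR 0 of them were called, and DESeq2 called 1, where it called 1.09% of all genes.

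Promoters of these genes are shown first, for the 5 genes that had a RefSeq entry and stood higher in each HLF KO library than in any WT library, and for Mrps5, the small-subunit gene of smallest p among those with lower values. RefSeq promoters (build GRCm38.p6, 300 bases, from 250 before to 50 after the annotated start) were matched by symbol for 68 of the 77 genes, 43 large and 25 small, with 74 promoter entries. No entry was matched for Mrpl4, Mrpl13, Mrpl15, Mrpl19, Mrpl38, Mrpl54, Mrps28, Mrps34 and Mrps35. Each line below holds the 120 bases that end just before the annotated start, read 5′ to 3′ on the gene's strand. Capitals mark the words CCGGAAG (core of sites for ETS factors) and GCGCA followed by any base and GCGC (sites of NRF1), searched on both strands. The stretches lie at chr9:105053148-105053267 (plus strand) for Mrpl3, chr1:37890357-37890476 (plus) for Mrpl30, chr11:97315596-97315715 (plus) for Mrpl45 and chr14:57826119-57826238 (plus) for Mrpl57. Those of Mrps24 and Mrps5 lie at chr11:5707702-5707821 (minus) and chr2:127587306-127587425 (plus).
Mrpl3: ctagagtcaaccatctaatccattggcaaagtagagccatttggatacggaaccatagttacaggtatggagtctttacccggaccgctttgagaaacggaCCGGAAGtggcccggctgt
Mrpl30: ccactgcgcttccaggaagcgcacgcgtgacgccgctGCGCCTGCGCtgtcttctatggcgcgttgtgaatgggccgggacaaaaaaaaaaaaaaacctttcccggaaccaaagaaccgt
Mrpl45: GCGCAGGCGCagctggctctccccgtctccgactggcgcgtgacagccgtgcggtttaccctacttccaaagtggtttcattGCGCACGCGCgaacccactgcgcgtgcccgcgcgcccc
Mrpl57: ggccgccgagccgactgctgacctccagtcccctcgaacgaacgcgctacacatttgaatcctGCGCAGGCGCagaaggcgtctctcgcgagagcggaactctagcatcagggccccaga
Mrps24: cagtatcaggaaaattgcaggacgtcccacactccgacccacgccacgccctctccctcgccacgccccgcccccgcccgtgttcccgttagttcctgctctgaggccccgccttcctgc
Mrps5: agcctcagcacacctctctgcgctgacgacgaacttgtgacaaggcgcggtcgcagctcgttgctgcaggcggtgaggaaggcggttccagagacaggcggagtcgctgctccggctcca

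The ETS word stood in 25 of the 74 promoter entries (33.8%), against 8.86% of all 32851 RefSeq promoters and 18.3% of the promoters of genes tested here. The NRF1 word stood in 13 of them (17.6%), against 4.60% of all promoters and 10.3% of those of tested genes. The word AAGATGGC, the core of YY1 sites, stood in 12 (16.2%), against 2.75% and 4.83%. Both subunits had each of these words, with 15 large and 10 small genes for ETS, 10 and 3 for NRF1, and 6 and 6 for YY1. TATAAA was found in 5 entries (6.76%), close to the 7.31% of promoters of tested genes. The palindrome TTACGTAA and its variant TTATGTAA, which PAR bZIP factors such as Hlf are known to bind, were found in 0 of the 74, where 0.119% and 0.938% of all promoters, and 0.177% and 0.542% of those of tested genes, held them. Both strands were searched for every word, and no word contains another. A match describes letters only, and a missing one says only that the letters are not in this window.

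Of the 77 genes, 73 passed the filter on low counts, 48 large and 25 small, and none of these passed the test between genotypes. With the quasi-likelihood test of edgeR and Benjamini-Hochberg adjustment over all 10204 tested genes, 0 of the 73 were called at an adjusted p under 0.05 (smallest adjusted p = 0.68, for Mrpl3), where the same rule called 0.0098% of all tested genes, that is Hlf alone. At an unadjusted p under 0.05 there were also 0 in either direction, where 7.27% of all tested genes passed, 2.63% higher and 4.65% lower in HLF KO. At an unadjusted p under 0.10 there were 7, against 13.9% of all. DESeq2 called 0 members, where it called 1.09% of all genes, and limma-voom called 0, where it called 0.0098%. At an unadjusted p under 0.05, DESeq2 gave 3 members (Mrpl3, Mrpl19 and Mrpl45), where 10.4% of all genes passed, and limma-voom gave 1 (Mrpl2), where 8.09% did. Without WT library 3 the edgeR fit gave 4 (Mrpl13, Mrpl19, Mrps5 and Mrps26), where 11.7% of all tested genes passed, and 0 were called.

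Small differences nevertheless leaned to one side. Values were higher in HLF KO for 50 of the 73 genes (68.5%), where 47.2% of all tested genes were higher. The large subunit had 33 of 48 (68.8%), and the small subunit 17 of 25 (68.0%). The median log2 fold change was 0.10 for the large and 0.15 for the small subunit, and -0.05 for all tested genes. The quartiles over the 73 genes were -0.05 and 0.59. Scaled by library size alone, 75.3% of the genes were higher, and the median over all genes moved from -0.05 to 0.00. With libraries left out in turn, the share ran from 63.5% to 70.3%. No test is given for these summaries, since the genes were chosen with earlier results of these data known.

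Summed over all 77 genes, the level was 4011, 4143 and 3800 CPM in WT libraries 1, 2 and 3 and 4181, 4372 and 4682 CPM in HLF KO libraries 1, 2 and 3. Every knockout library was above every WT library, by a margin of 38.1 CPM between the nearest pair. The means were 3985 ± 173 and 4412 ± 253 CPM (SD, n = 3 each), a ratio of 1.11. With median-of-ratios size factors HLF KO library 1 (4133 CPM) lay below WT library 2 (4165 CPM), so the separation depends on the scaling. As a share of all counts, these genes took 0.378%, 0.402% and 0.390% in WT and 0.437%, 0.456% and 0.451% in HLF KO, each with an exact 95% Clopper-Pearson interval at most 0.0083 percentage points wide, which covers counting error only.

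Each subunit, taken by the mean log2 CPM of its tested genes, was also higher in every knockout library. For the large subunit the WT libraries stood at 5.24, 5.70 and 5.58 and the HLF KO libraries at 5.74, 5.81 and 5.82, a difference of 0.28. For the small subunit they stood at 5.20, 4.90 and 5.13 and at 5.28, 5.48 and 5.47, a difference of 0.34. Over all tested genes the same measure was 0.07 higher in HLF KO, although their median log2 fold change was -0.05. The differences of 0.28 and 0.34 likewise exceed the median log2 fold changes of 0.10 and 0.15, so this measure and the fit are not on the same footing. The subunits did not follow each other among the WT libraries. WT library 1 was the lowest for the large subunit and the highest WT library for the small one, and WT library 2 was the reverse. The level of the large subunit minus that of the small one was therefore 0.04, 0.80 and 0.45 in WT, against 0.46, 0.32 and 0.35 in HLF KO. The genotype means were 0.43 ± 0.38 and 0.38 ± 0.07 log2 units (SD, n = 3 each), and the genotypes overlapped. Placing genes by structure, with Mrps18a and Mrps30 in the large subunit, where their proteins are known to sit, and Mrps36, now known as part of another mitochondrial enzyme complex, left out, gave a difference between genotypes of -0.06 in place of -0.05.

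**Figure D1:**
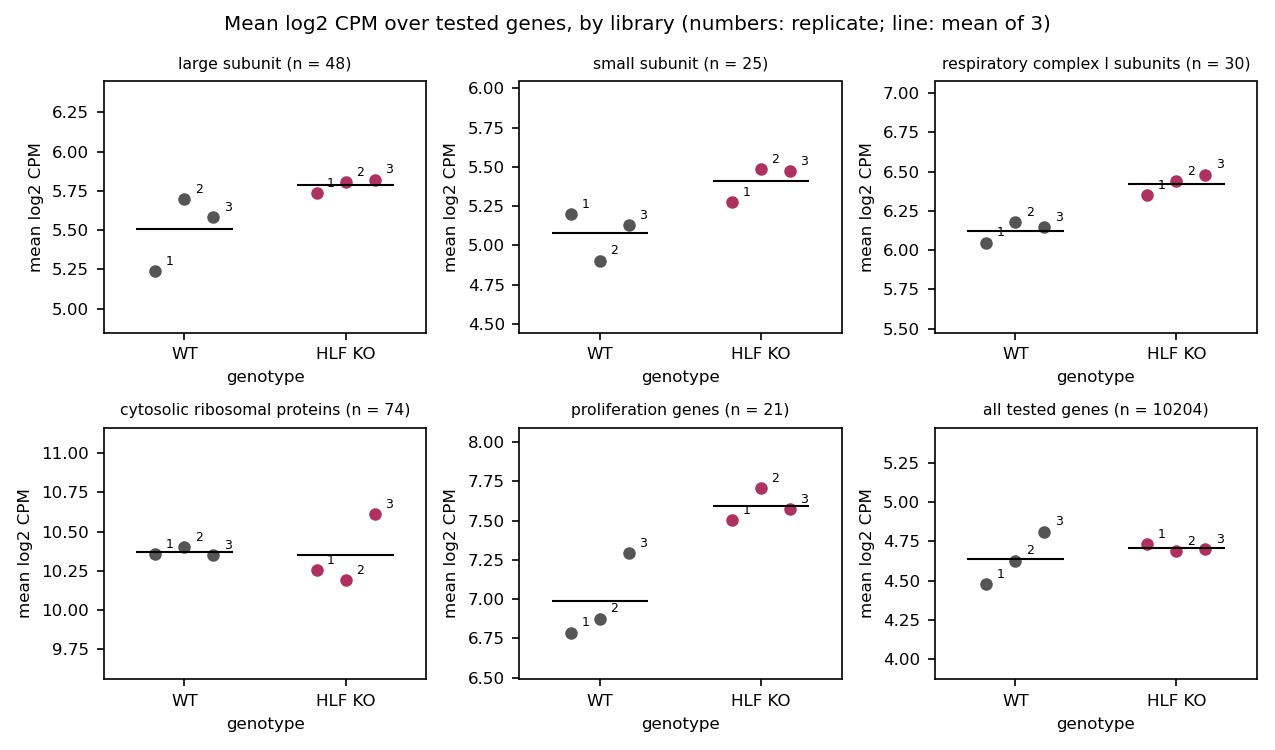
Mean log2 CPM over the tested genes of each group (vertical axis) in the 3 WT and 3 HLF KO libraries. Points are libraries numbered by replicate, lines are means of 3, and each panel spans the same range of log2 units. Both subunits, complex I and the proliferation genes have every knockout library above every WT library, the large subunit by 0.04 log2 units, while cytosolic ribosomal proteins and all tested genes overlap.

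Some other gene groups also differed in level between genotypes and some did not, and their part in these values was not tested. Complex I subunits of the respiratory chain, which the mitochondrial ribosome serves by making their mitochondrially encoded partners, had 22 of 30 genes higher, with a median of 0.14 and a mean log2 CPM 0.30 higher in HLF KO. Cytosolic ribosomal proteins had 41 of 74 higher, with a median of 0.02 and a difference in mean log2 CPM of -0.02. Proliferation genes (22 listed, 21 tested) were higher for 19, with a median of 0.48, and their mean log2 CPM was 6.79 to 7.29 in WT and 7.501 to 7.71 in HLF KO. Of them 7 had an unadjusted p under 0.05 by edgeR, all with higher values, where 2.63% of all tested genes passed in that direction, and 0 passed when adjusted over all genes. WT library 1 was the lowest of the 6 on the large subunit, on complex I, on proliferation genes and on all tested genes. Erythroid markers (13 listed, 7 tested, 5 higher, 2 lower, median 0.32) had a mean log2 CPM of 5.87, 5.74 and 5.81 in WT. In HLF KO it was 5.90, 6.23 and 6.04, so every knockout library was above every WT library, while the sums of these markers overlapped. T and NK cell markers (10 listed, 8 tested, 5 higher, Lck and Cd8a at 0 in all libraries) summed to 204.2, 249.1 and 120.2 CPM in WT and to 296.5, 358.4 and 504.0 CPM in HLF KO. Nkg7, the one of smallest p, was at 71.4 to 156.3 CPM in WT and 254.0 to 462.7 CPM in HLF KO, most of the sum there. Lower values were found for 3 of the 8 tested T and NK markers. Their mean log2 CPM overlapped between genotypes, at 2.22, 2.97 and 1.34 in WT and 2.63, 3.34 and 2.36 in HLF KO. B lymphoid markers (10 listed, 5 tested, 4 lower) summed to 83.6, 124.1 and 162.3 CPM in WT and to 61.8, 34.8 and 40.6 CPM in HLF KO, where Pax5 was at 0. The sums of both lists separated the genotypes, and 0 of their genes were called by edgeR. DESeq2 called 1 gene in each list, where it called 1.09% of all genes.

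**Figure D2:**
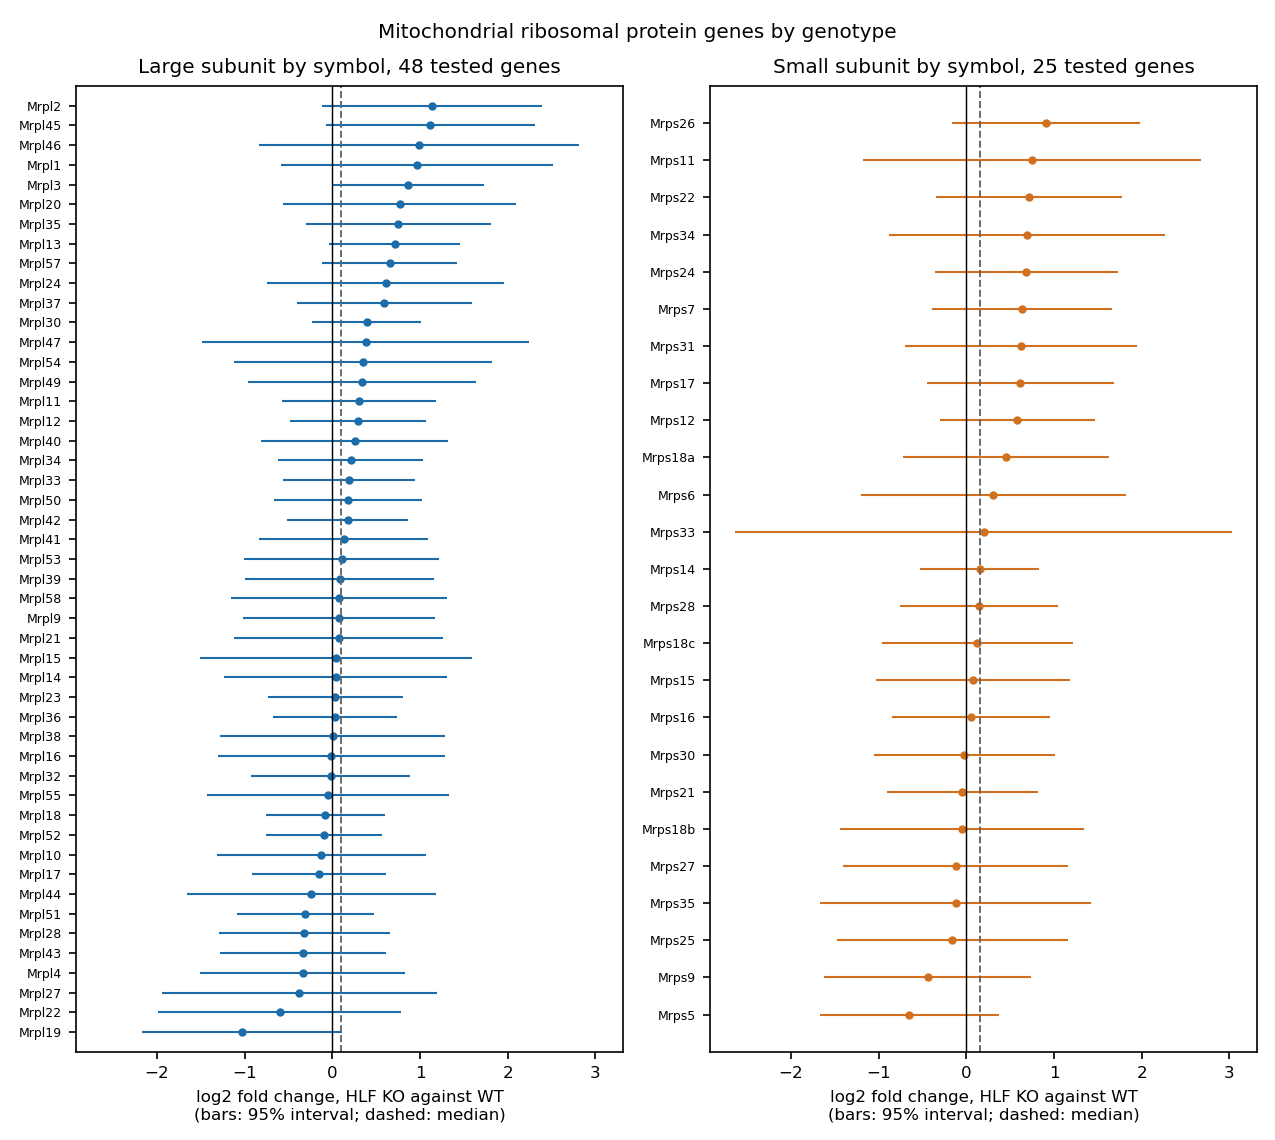
log2 fold change of HLF KO against WT (horizontal axis) for each of the 48 large-subunit and 25 small-subunit genes tested, with 95% intervals from edgeR's fit as bars and the median of each subunit dashed. All 73 intervals include 0, and Mrpl3, Mrpl13 and Mrpl45 come nearest to leaving it on the positive side.

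Among large-subunit genes with higher values in HLF KO, the smallest p belonged to Mrpl3, whose protein belongs to the conserved core near the peptidyl transferase centre. It stood at 47.5, 52.3 and 42.4 CPM in WT and at 58.9, 83.9 and 116.4 CPM in HLF KO. The genotypes did not overlap, and the knockout libraries were spread more widely than the WT ones. Its log2 fold change was 0.87 (SE 0.40, 95% interval -0.003 to 1.73, edgeR adjusted p = 0.68). Mrpl13, also of the conserved core, stood at 57.8, 80.2 and 106.8 CPM in WT and at 108.1, 129.4 and 163.2 CPM in HLF KO. WT library 3 almost reached HLF KO library 1, and the log2 fold change was 0.71 (SE 0.34, adjusted p = 0.69).

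Mrpl45 encodes the subunit that ties the exit of the ribosome to the inner membrane, where the new proteins are inserted. It stood at 23.2, 17.9 and 13.6 CPM in WT and at 32.5, 41.0 and 45.4 CPM in HLF KO, so that every knockout library was above the highest WT library. By edgeR it differed by 1.12 log2 units (SE 0.55, adjusted p = 0.69), and by between 0.95 and 1.34 with any 1 library left out. Mrpl2, which encodes a core protein at the peptidyl transferase centre, was at 11.1, 40.9 and 19.5 CPM in WT and at 51.9, 40.4 and 65.5 CPM in HLF KO. WT library 2 lay within the knockout range, and the log2 fold change of 1.14 (SE 0.57, adjusted p = 0.69) was 1.79 without that library.

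In all, 6 of the 73 genes had every knockout library above every WT library and 0 the opposite, where 7.52% and 6.85% of all tested genes did. The first count is close to that background. Besides Mrpl3, Mrpl13 and Mrpl45 these were Mrpl30, Mrpl57 and Mrps24. Mrpl30 and Mrpl57 are named because of their values, outside the rule for named genes. Mrpl30, a conserved large-subunit protein, was the most even of them within each genotype, at 96.7, 96.6 and 106.4 CPM in WT and at 122.9, 132.0 and 138.3 CPM in HLF KO. Its log2 fold change was 0.39 (SE 0.29). Mrpl57, found only in mitochondrial ribosomes, was at 72.1, 63.3 and 51.3 CPM in WT and at 114.3, 78.6 and 101.1 CPM in HLF KO, with a log2 fold change of 0.65 (SE 0.35). Mrps24, a small-subunit protein at the entry of the mRNA channel, was at 24.3, 37.5 and 33.0 CPM in WT and at 39.4, 43.9 and 69.3 CPM in HLF KO. HLF KO library 3 set much of that difference, with a log2 fold change of 0.69 (SE 0.48) from all libraries and 0.40 without it.

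**Figure D3:**
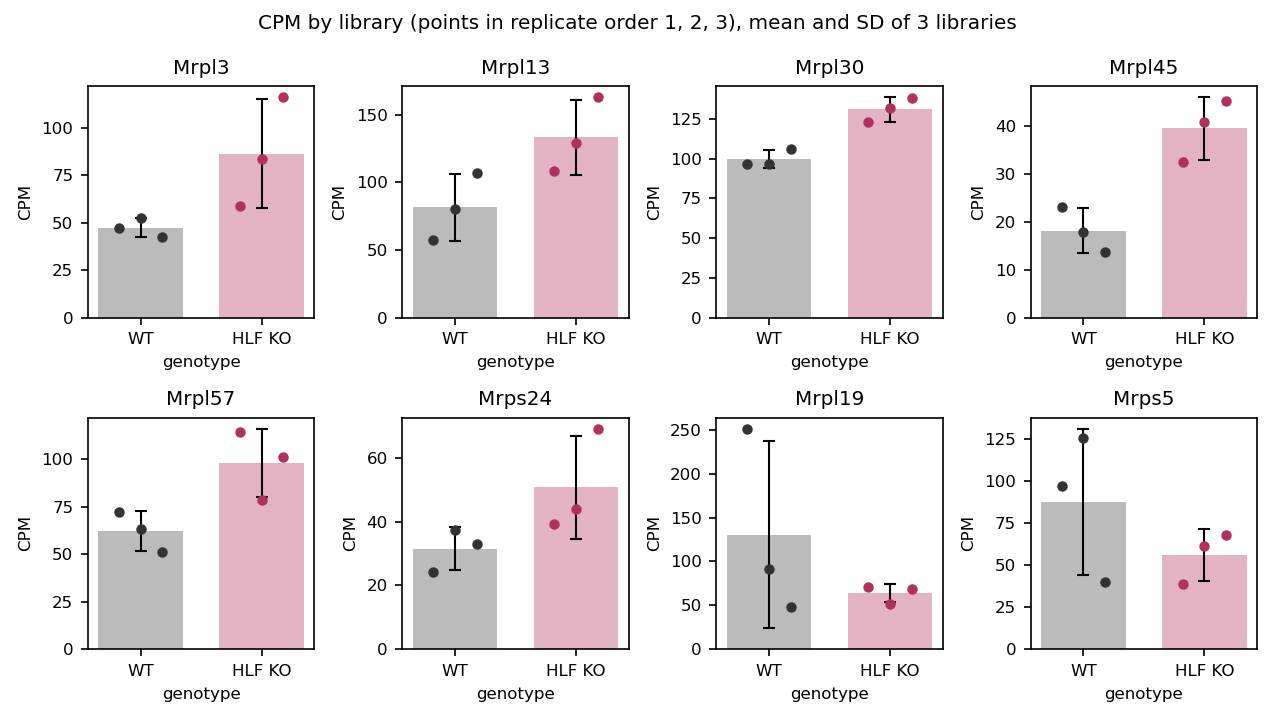
CPM of 8 genes (vertical axis, starting at 0) in WT and HLF KO. Bars are means, error bars are SD and points are the 3 libraries of each genotype in replicate order. Mrpl3, Mrpl13, Mrpl30, Mrpl45, Mrpl57 and Mrps24 have no overlap between genotypes, and the WT bar of Mrpl19 rests on WT library 1, at 251.8 CPM.

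The other small-subunit genes of smallest p with higher values were Mrps26, Mrps22 and Mrps12. Mrps26, a subunit without a bacterial counterpart, was at 27.2, 23.2 and 60.9 CPM in WT and at 51.6, 86.7 and 70.7 CPM in HLF KO. WT library 3 lay above HLF KO library 1, and edgeR put the log2 fold change at 0.91 (SE 0.49, adjusted p = 0.71), or 1.47 without WT library 3. For Mrps22, likewise confined to mitochondria, HLF KO libraries 1 and 2 stood at 65.0 and 63.0 CPM, while HLF KO library 3, at 30.3 CPM, lay among the WT libraries (26.2, 34.2 and 35.7 CPM). Mrps12, a conserved protein of the decoding centre, had a log2 fold change of 0.58 (SE 0.40), with WT library 1 at 63.2 CPM inside the knockout range of 58.1 to 89.3 CPM.

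Lower values in HLF KO were found for 23 of the 73 genes. Mrpl19, a conserved protein at the interface of the subunits, was at 251.8, 91.9 and 48.5 CPM in WT and at 71.3, 51.6 and 69.1 CPM in HLF KO. WT library 1 was far above all others, and the log2 fold change of -1.03 (SE 0.52, edgeR adjusted p = 0.69) was -0.12 without it. Mrps9 had the same shape, at 133.1 CPM in WT library 1, 42.3 and 34.1 CPM in the other WT libraries and 37.3 to 65.9 CPM in HLF KO. Its log2 fold change of -0.44 (SE 0.54) turned to 0.44 without WT library 1. Mrps5, a protein of the mRNA channel, was at 97.1, 125.3 and 40.0 CPM in WT and at 38.5, 61.1 and 67.8 CPM in HLF KO, with WT libraries 1 and 2 high. Its log2 fold change was -0.65 (SE 0.47, adjusted p = 0.77), and -0.29 without WT library 2.

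Mrpl22, which lines the exit tunnel, varied as widely within each genotype as between them. It was at 41.1, 76.9 and 31.9 CPM in WT and at 23.1, 63.3 and 12.7 CPM in HLF KO, with a log2 fold change of -0.60 (SE 0.63) that was -1.46 without HLF KO library 2, -0.20 without HLF KO library 3 and -0.14 without WT library 2. Mrpl51 and Mrpl43, both confined to mitochondria, were at -0.31 (SE 0.36) and -0.34 (SE 0.43), and ran from -0.47 to -0.11 and from -0.46 to -0.19 with a library left out. Mrps25 and Mrps27, also without bacterial counterparts, were at -0.16 and -0.12, each with a sign that turned without WT library 3 (0.30 and 0.43).

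The Mrps18 paralogues are 3 relatives of 1 bacterial small-subunit protein. Mrps18b and Mrps18c encode small-subunit proteins, and the product of Mrps18a sits in the large subunit. None of them differed between genotypes beyond the spread. Mrps18a was at 23.4, 23.3 and 47.3 CPM in WT and at 26.5, 46.6 and 55.7 CPM in HLF KO, with a log2 fold change of 0.45 (SE 0.54) that ran from 0.23 without HLF KO library 3 to 0.88 without WT library 3. Mrps18c was the most even, between 25.4 and 42.0 CPM in all 6 libraries, with a log2 fold change of 0.13 (95% interval -0.96 to 1.22). Mrps18b was at 22.4, 87.2 and 19.6 CPM in WT and at 34.2, 62.6 and 28.3 CPM in HLF KO. WT library 2 and HLF KO library 2 were the highest, and its log2 fold change of -0.05 turned to 1.00 without WT library 2. Mrps30, whose product also sits in the large subunit, was at -0.02 (SE 0.47), and turned to 0.50 without WT library 2.

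The most abundant genes were among those that bounded a difference tightly, though the smallest SE was that of Mrpl30 (0.29). Without correction for length, Mrpl18 and Mrpl17 had the highest mean log2 CPM of the large subunit and Mrps14 and Mrps21 that of the small one. Their log2 fold changes were -0.08 (95% interval -0.76 to 0.60), -0.15 (-0.91 to 0.62), 0.15 (-0.52 to 0.83) and -0.04 (-0.90 to 0.81). In these 4 and 7 other genes of the 73, the interval lay wholly between -1 and 1, that is within a 2-fold difference either way, as it did for 15.1% of all tested genes. For the remaining genes a 2-fold difference in at least 1 direction lay inside the interval. The tested genes of lowest mean log2 CPM were Mrpl47 in the large subunit, at 2.16, 36.1 and 17.6 CPM in WT and 21.2 to 28.0 CPM in HLF KO, and Mrps33 in the small one, at 1.53 to 3.58 CPM over all libraries. Mrpl47, a protein at the exit tunnel, had a log2 fold change of 0.38 (SE 0.85) that was -0.13 without WT library 1 and 1.31 without WT library 2.

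The genes varied more among WT than among HLF KO libraries. The SD of log2 CPM within a genotype had a median of 0.59 in WT and 0.35 in HLF KO, and was larger in WT for 53 of the 73 genes (72.6%). All tested genes showed the same, with medians of 0.75 and 0.46 and 70.7% larger in WT. WT library 1 was the lowest of the 6 for 27 genes (37.0%, against 29.5% of all tested genes), 20 of them large and 7 small. HLF KO library 3 was the highest for 20 (27.4%, against 13.7%). Among genes picked out after their values were seen, those of the large subunit with their lowest value in WT library 1 included Mrpl47, Mrpl46, Mrpl20, Mrpl15, Mrpl16 and Mrpl44, while Mrpl19 and Mrpl27, and Mrps35 and Mrps9 of the small subunit, were highest there.

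**Figure D4:**
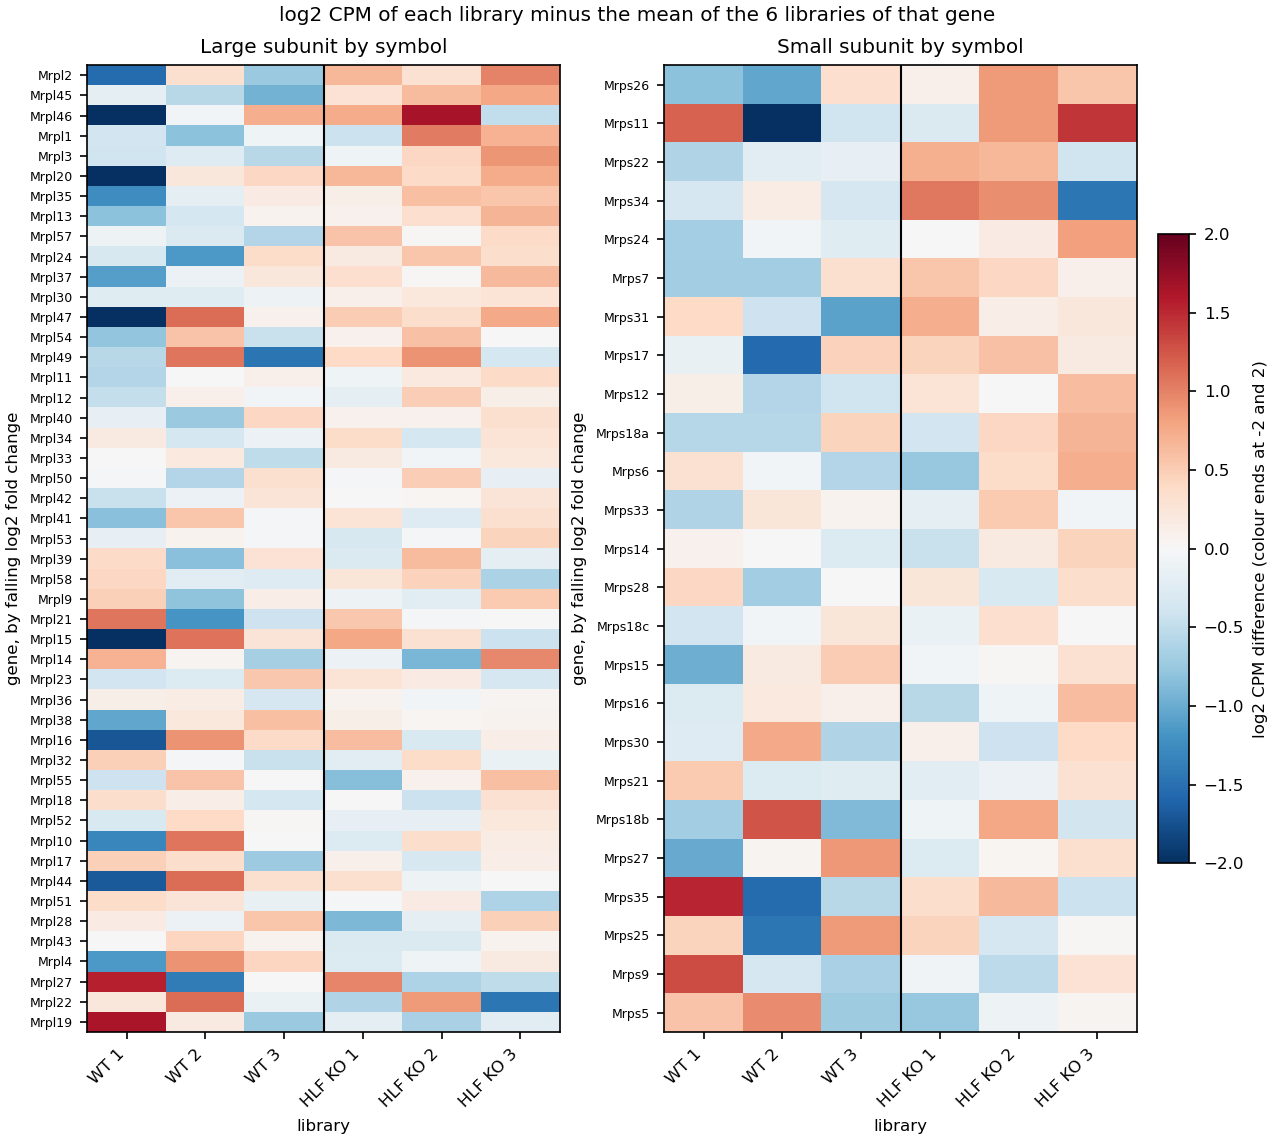
log2 CPM of each library minus the mean of the 6 libraries of that gene (colour, with its ends at -2 and 2) for 48 large-subunit and 25 small-subunit genes, ordered by falling log2 fold change. The left columns, WT libraries 1 to 3, hold the strongest colours, with WT library 1 lowest for 27 genes and HLF KO library 3 highest for 20.

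Grouped by origin, large-subunit genes with a bacterial counterpart had 19 of 30 higher (median 0.06) and those found only in mitochondria 15 of 20 (median 0.15). In the small subunit these were 11 of 14 (median 0.15) and 5 of 9 (median 0.20), here with Mrps18a and Mrps30 counted in the large subunit. The 10 genes on chromosome 11, which carries Hlf, had 6 higher and a median of 0.04. For 2 of these 10, Mrpl45 and Mrps24, every knockout library was above every WT library, where 7.52% of all tested genes had this. Per kilobase of transcript, the median over the 70 genes listed with 1 transcript was 36.6 CPM, with quartiles of 21.6 and 58.1 and a range from 6.38 for Mrpl47 to 315.5 for Mrpl52. The lengths are those of GENCODE M21 transcripts cross-referenced to the RefSeq accessions, and a transcript model longer than the RNA made in these cells would lower such a value.

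The 4 genes that were not tested, Mrpl48, Mrps2, Mrps10 and Mrps36, all have several listed transcripts. Genes with several transcripts had few counts in these files, with a median of 3 counts in total over the 6 libraries, against 79 for genes with 1 transcript. Among the 77 genes those medians were 22 (7 genes) and 3270 (70 genes). Mrpl48 had 0, 2 and 0 counts in WT and 0, 17 and 3 in HLF KO, Mrps10 had 0, 13 and 9 and then 0, 0 and 0, and Mrps2 had 0, 5 and 3 and then 0, 0 and 2. Low counts of these genes are not read as low expression. Mrpl1, Mrpl15 and Mrps33 have several listed transcripts too and were tested.

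Other parts of mitochondrial translation were taken from lists of known factors, and 0 genes on them were called by edgeR over all genes. Of 5 further subunits of the ribosome that carry other symbols 4 were tested, 2 higher and 2 lower. The sum of this list was 294.7, 271.2 and 264.1 CPM in WT and 234.8, 187.7 and 223.7 CPM in HLF KO. Every knockout library was thus below every WT library, at a ratio of 0.78, the opposite side to the sum of the 77 genes. The mean log2 CPM of the list overlapped between genotypes. Ptcd3, a small-subunit protein with RNA-binding repeats, was at -0.88 (SE 0.41), with WT library 1 at 216.2 CPM and the other 5 libraries at 62.3 to 117.3 CPM. Aurkaip1, also of the small subunit, was at -0.12 (SE 0.45).

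Of 12 translation factors 8 were tested, 5 higher and 3 lower. Mtrf1l, a release factor that ends translation at stop codons, was at 12.1, 21.6 and 24.5 CPM in WT and at 66.1, 54.9 and 66.4 CPM in HLF KO. Its genotypes were widely separated, with a log2 fold change of 1.69 (SE 0.49, unadjusted p = 0.0050, edgeR adjusted p = 0.47). Guf1, a ribosome-bound GTPase of the elongation factor family, was lower in every knockout library, at 193.8, 94.0 and 117.6 CPM in WT and at 60.5, 74.3 and 58.3 CPM in HLF KO (log2 fold change -1.07, SE 0.36, adjusted p = 0.55).

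Of 20 mitochondrial aminoacyl-tRNA synthetases and related enzymes, which charge the tRNAs, 18 were tested, 9 higher and 9 lower. Wars2, for tryptophan, was at 8.27, 117.0 and 59.7 CPM in WT and at 5.03, 12.1 and 12.9 CPM in HLF KO, so that WT libraries 2 and 3 alone were high (log2 fold change -2.62, SE 0.83, edgeR adjusted p = 0.50). DESeq2 called it (adjusted p = 0.047). Mars2, for methionine, was at -1.66 (SE 0.70), with WT library 1 at 155.7 CPM and all other libraries at 12.9 to 42.1 CPM.

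Assembly factors of the mitochondrial ribosome had 10 of 22 tested genes higher (27 listed, median -0.05). Rpusd4, a pseudouridine synthase that acts on the ribosomal RNA, was lower in every knockout library at -1.32 (SE 0.59), and Mterf4, which acts in subunit assembly, was at -1.31 (SE 0.95). Factors of mitochondrial DNA replication, transcription and mRNA stability had 7 of 11 higher (12 listed, median 0.44). Their mean log2 CPM was 4.44 to 4.96 in WT and 5.01 to 5.21 in HLF KO, without overlap. Tefm, the transcription elongation factor, was at 1.45 (SE 0.83), and Twnk, the DNA helicase, was lower in every knockout library at -0.78 (SE 0.45). Factors for inserting the products into the membrane or starting their synthesis had 4 of 6 higher (7 listed, median 0.15), with Letm1 at 0.95 (SE 0.94) and Taco1, an activator of translation, at -0.53 (SE 0.81). The mean log2 CPM of this last list was 4.67 to 5.27 in WT and 5.35 to 5.40 in HLF KO, also without overlap, while its sums overlapped.

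**Figure D5:**
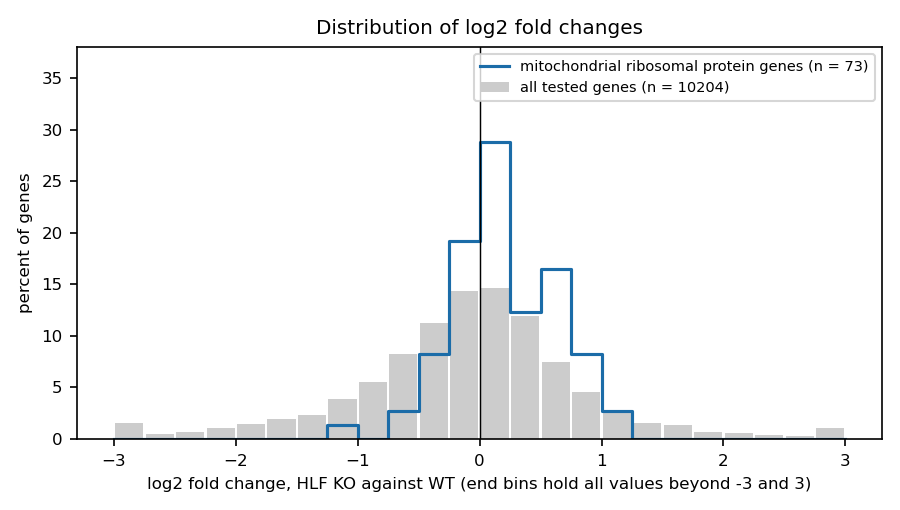
Share of genes (vertical axis, percent) by log2 fold change of HLF KO against WT in bins of 0.25, for all 10204 tested genes (grey bars) and the 73 mitochondrial ribosomal protein genes (line). The line is narrower than the bars and lies to the right, with 68.5% of these genes above 0 against 47.2% of all.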

How the data were processed

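Per the labels' protocols, total RNA was taken from the sorted cells and made into TruSeq libraries. Reads were aligned with TopHat to mm9, per the submitters' processing notes, and 1 file of raw counts for RefSeq transcripts was deposited for each library. The counter, its use of strand and its handling of shared reads were not given in the sources used here. For this report 30858 transcripts were given mouse symbols (30363 through RefSeq and 179 through GENCODE tables, 316 with none) and the counts were summed to 23574 features. Genes passed filterByExpr (minimum count 10, minimum total 15). R 4.3.3 was used with edgeR 4.0.16 (TMM factors, robust quasi-likelihood fit, genotype as the only term, Benjamini-Hochberg adjustment over 10204 genes, threshold 0.05), limma 3.58.1 and DESeq2 1.42.0. CPM use TMM-scaled library sizes, log2 CPM a prior count of 2, and 95% intervals come from the fit's SE and degrees of freedom. On simulated data for this comparison (10204 genes, 200 changed), edgeR recovered 8% of 2-fold, 44% of 4-fold and 68% of 8-fold changes. The changed genes were drawn only from those with a log2 of mean CPM of at least 4, so less abundant genes were not covered. The simulation called 104 genes, against 1 in the data, and more calls make the adjusted threshold easier to pass. It also gave both genotypes the same dispersion for each gene, whereas the spread in the data was larger in WT. These shares may therefore not hold for the data.

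The text names, per subunit and direction, the 4 genes of smallest p, the 2 most and the 1 least abundant per subunit, the Mrps18 paralogues, Mrps30 and Mrps36, and in each list of other factors the 2 of smallest p. The members, lists and this rule were chosen with earlier results of these data known. Alternatives were other scalings and tools, other filters, genes with 1 transcript, thinning to equal depth, the replicate number as a block and leaving out each library. The sums of all members under these settings were added after seeing the data.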

Additional observations from a re-analysis of the deposited data

How the results depend on the processing

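No member was called under any alternative tried. Genes called over all genes, 1 by edgeR, were 108 with DESeq2, 9 with no filter on low counts and 1 to 3 with a library left out. Members at an unadjusted p under 0.05, 0 by edgeR, were 3 with DESeq2 (10.4% of all genes passed), 1 with limma-voom (8.09%), 1 with library size only (7.21%), 2 with no filter (8.501%) and 0 to 4 with a library left out (4.32% to 11.7%). With a library left out the median log2 fold change ran from 0.13 to 0.22 for the large and from 0.16 to 0.37 for the small subunit. The medians from all libraries, 0.10 and 0.15, lay below these ranges. The share of genes with higher values ran from 60.4% to 68.8% and from 57.7% to 76.9%. The large minus small level ran from -0.12 to 0.13, and the ratio of summed CPM from 1.08 to 1.14. Limma-voom gave 79.5% of members higher against 53.6% of all genes, with the median of all genes at 0.06 in place of -0.05.

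Deviations from the genotype means were hardly correlated between same-numbered libraries (r of -0.01, -0.02 and 0.02). With so few libraries this cannot show whether they were paired in origin or handling. With the replicate number as a block 2 genes and 0 members were called, and 78.1% of members were higher, against 53.2% of all genes.

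Of 26 named members 14 kept their sign in every setting run. Signs turned as follows, and the cause was not tested. Mrps18b was at 0.16 with limma-voom, 0.026 with library size only and 0.22 with the block. Mrps21 was at 0.014 with limma-voom and 0.011 with library size only, Mrps25 at 0.14 with limma-voom and 0.088 with the block, and Mrps27 at 0.016 and 0.049. Mrps30 was at 0.048 with limma-voom, 0.029 with library size only, 0.00088 when thinned and 0.075 with the block. With a library left out, ranges that crossed 0 were -0.44 to 0.086 for Mrpl17, -0.26 to 0.10 for Mrpl18, -0.13 to 1.31 for Mrpl47, -0.77 to 0.44 for Mrps9, -0.044 to 0.37 for Mrps14, -0.45 to 1.00 for Mrps18b, -0.0046 to 0.30 for Mrps18c, -0.21 to 0.28 for Mrps21, -0.58 to 0.30 for Mrps25, -0.46 to 0.43 for Mrps27, -0.27 to 0.50 for Mrps30 and -0.054 to 0.40 for Mrps33.

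The large minus small level needs no fit and was not run for limma-voom or the block, and Mrps33 has no value under the stricter filter or with 1-transcript genes. The median SE of 0.50 over the members limits what 3 libraries a genotype can show.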
